A study of Mus musculus with 10 samples.

Results

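The 36 genes described here encode the enzymes, carriers and regulators of fatty acid oxidation in mitochondria and peroxisomes. They were chosen by symbol, as the rows of the deposited count table whose Ensembl identifier carries one of the listed names, and all 36 were found among the 22165 identifiers of the table. The names were listed with earlier results of these data known. Each was placed in 1 group: 19 as mitochondrial, 10 as peroxisomal, 2 (Ech1 and Eci2) under both organelles, 4 as long-chain acyl-CoA synthetases and 1 as the nuclear receptor gene Ppard. Crat was placed with the carnitine shuttle and so counted as mitochondrial. A place in 1 group does not mean that a product is absent from the other organelle. Of the 36, 35 had enough counts to be tested. Ehhadh, the peroxisomal bifunctional enzyme, had 16 counts over all libraries and was not tested.

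RNA was sequenced from sorted peritoneal macrophages of C57BL/6 mice in 4 groups, which cross genotype with treatment. All mice carried floxed alleles of 1 target gene. The wild-type group had the floxed alleles without Cre, although a growth note in the labels calls it WT, and the knockout group also carried LysM-Cre. LysM-Cre is expressed from the lysozyme 2 locus and so acts in myeloid cells, and no Cre-only control was among these groups. Mice received saline (basal) or IL-4 complexed to an anti-IL-4 antibody in the peritoneum, and cells were collected 36 h later. There were 2 basal libraries and 3 IL-4 libraries of each genotype. The labels do not say whether libraries came from separate animals, so p-values measure the spread between these libraries, which may be technical.

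Fatty acids are activated to acyl-CoA by the acyl-CoA synthetases, and long chains enter mitochondria through the carnitine shuttle. There a dehydrogenase, a hydratase, a second dehydrogenase and a thiolase shorten them in repeated cycles, and electron-transferring flavoprotein passes electrons to the respiratory chain. Peroxisomes take up very long and branched chains through ABC transporters of the D family and shorten them with their own oxidases. Fatty acid oxidation is a known feature of macrophages activated by IL-4, and peroxisome proliferator-activated receptors (PPARs) are known regulators of both pathways.

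The 10 libraries held 8762403 to 15024073 counted reads. Levels are given as CPM, the count scaled to the size of the library with TMM factors, with the SD between libraries after ±. Differences are given as log2 differences from edgeR's quasi-likelihood test with the standard error after ±. The test covered 11614 genes, and a gene passed where its p, adjusted over them by Benjamini-Hochberg, was under 0.05. A value in brackets after a left-out library is the adjusted p of edgeR without it.

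Markers of the labelled cell type were high throughout: 16 large peritoneal macrophage genes summed to 13575 to 22883 CPM. Markers of other cells differed between the groups. The 11 B cell genes in the table summed to 264 to 441 CPM in wild-type basal, 1788 to 2055 in knockout basal, 631 to 725 in wild-type IL-4 and 691 to 768 in knockout IL-4 libraries. The 12 marker genes of monocytes, dendritic cells and small macrophages summed in the same order to 443 to 862, 1656 to 2164, 2417 to 2928 and 2108 to 2151 CPM. The 8 mast cell genes summed to 82.4 to 131, 186 to 314, 37.4 to 49.6 and 36.0 to 44.1 CPM, and the 9 T and NK cell genes to 22.0 to 38.5, 97.8 to 102, 23.6 to 29.0 and 23.4 to 27.3 CPM. The 10 neutrophil genes summed to 259 to 363, 184 to 269, 195 to 234 and 135 to 189 CPM. The 5 eosinophil genes summed to 6.51 to 8.03, 35.7 to 46.0, 4.06 to 12.8 and 10.1 to 17.6 CPM, with Epx and Prg2 at 0. The 9 mesothelial and fibroblast genes summed to at most 1.76 CPM with Msln, Upk3b, Wt1, Krt19 and Pdgfra at 0. Knockout basal libraries thus had the highest B cell, T and NK cell, mast cell and eosinophil sums, and both IL-4 groups had higher small macrophage, monocyte and dendritic cell sums than the wild-type basal group. Their part in the results below was not tested. In such bulk libraries, fewer cells of a type and less RNA per cell cannot be told apart.

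Per kilobase of exon, averaged over the 10 libraries, levels spanned a wide range. Acadl, the long-chain acyl-CoA dehydrogenase, was highest at 99.8 CPM per kb. Abcd2 (34.1), which encodes a peroxisomal transporter of very-long-chain acyl-CoA, Etfa (33.6), a subunit of electron-transferring flavoprotein, Acadm (29.8), the medium-chain dehydrogenase, and Eci1 (28.4), an enoyl-CoA isomerase, came next. At the low end were Ehhadh at 0.0481, Acads, the short-chain dehydrogenase, at 0.663 and Ppard at 0.668 CPM per kb. The peroxisomal oxidase gene Acox3 (1.8) and the peroxisomal thiolase gene Acaa1a (2.04) were also low on this scale, and Acsl5 (12.3) was the highest of the synthetases.

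**Figure D1:**
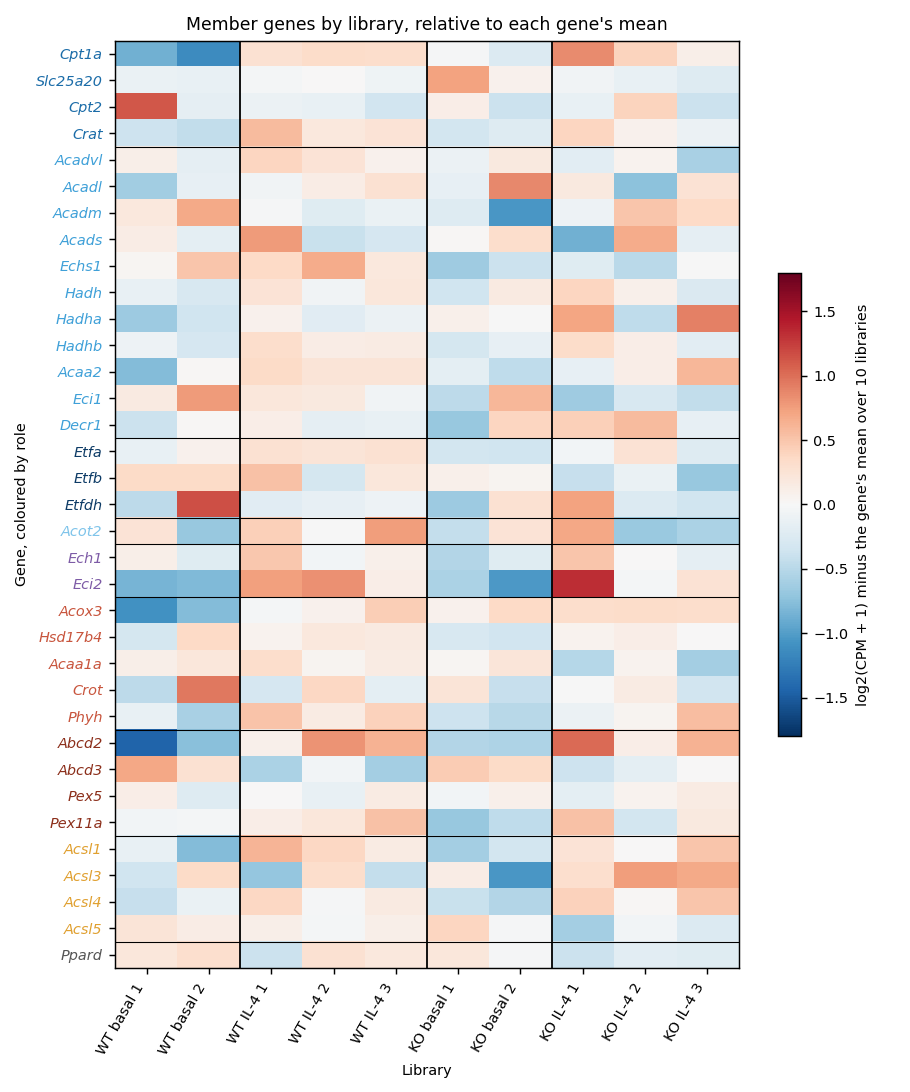
Each row is 1 of the 35 tested genes, ordered and coloured by role, and each column 1 library. Colour gives log2(CPM + 1) minus the gene's mean over the 10 libraries. Cpt1a, Eci2, Acox3 and Abcd2 are lowest in wild-type basal libraries or in both basal groups, and Abcd3 is highest in the basal libraries.

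After IL-4, a small number of these genes differed from basal by 1.52-fold to 2.72-fold, and most of them were higher. Averaged over the 2 genotypes, 8 members rose, 1 fell and 26 did not pass. That is 25.7% of the 35 tested members, where 12.9% of all genes tested passed in either direction. The 8 that rose were 22.9% of the members, where 7.03% of all genes rose and 5.82% fell. The members were chosen with earlier results of these data known, so these shares are not a test of the pathway. In the related lists given below, 0 of 27 in the other mitochondrial list, 1 of 25 in the other peroxisomal list and 0 of 16 in the peroxin list rose. For uptake genes, regulators and PPAR targets the counts were 1 of 16, 4 of 14 and 3 of 13. The median log2 difference was 0.25 over the members and 0.00 over all genes. The genes that rose lie at several steps: Cpt1a and Crat in the carnitine shuttle, Eci2 in both organelles, Acox3, Phyh and Abcd2 in peroxisomes, and the synthetases Acsl1 and Acsl4. Abcd3, another peroxisomal transporter gene, fell. None of the 11 mitochondrial beta-oxidation enzymes and none of the 3 electron transfer genes passed in this comparison with edgeR or with DESeq2, and 3 of the 11 enzymes and 0 of the 3 electron transfer genes had an unadjusted p under 0.05, as 27.1% of all genes did. In the same comparison 7 of 12 small macrophage, monocyte and dendritic cell genes rose, 6 of 16 large macrophage genes fell and 6 of 8 mast cell genes fell. The part of these cells in the members' differences was not tested.

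The carnitine shuttle was led by Cpt1a (ENSMUSG00000024900, chr19:3322334-3385733 on the plus strand in GENCODE M21 on mm10). Its product, carnitine palmitoyltransferase 1A, sits on the outer mitochondrial membrane and is the rate-limiting step of long-chain entry. Cpt1a was at 63.7 and 52.8 CPM in wild-type basal, 141, 148 and 146 CPM in wild-type IL-4, 115 and 98.2 CPM in knockout basal and 211, 154 and 126 CPM in knockout IL-4 libraries. Every IL-4 library lay above every basal library. The averaged rise was 1.96-fold (log2 0.97 ± 0.18, adjusted p = 0.00219), from 82.5 ± 29.2 (SD, n = 4) to 155 ± 29.4 CPM (SD, n = 6). Crat, which moves acetyl groups between CoA and carnitine, was at 20 and 19.0 CPM in wild-type basal and 39.4, 29.8 and 31.2 CPM after IL-4. In knockout it was at 20.5 and 22.1 CPM and then at 34.5, 27.5 and 24.2 CPM. The groups again did not overlap, and the averaged rise was 1.52-fold (log2 0.60 ± 0.18, adjusted p = 0.0406). That call was lost without any 1 of 8 libraries, with adjusted p from 0.0543 to 0.131, the exceptions being knockout IL-4 replicates 2 and 3. Neither Slc25a20, the carnitine-acylcarnitine carrier (log2 -0.25 ± 0.18, adjusted p = 0.390), nor Cpt2, the inner-membrane enzyme (log2 -0.38 ± 0.29, adjusted p = 0.434), passed.

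No mitochondrial enzyme of the oxidation cycle passed for IL-4 averaged over genotypes. Their 11 genes summed to 561 and 726 CPM in wild-type basal, 698 to 716 CPM in wild-type IL-4, 560 and 768 CPM in knockout basal and 605 to 776 CPM in knockout IL-4 libraries, so each IL-4 range lay within or across the basal ranges. Averaged over genotypes, 9 of the 11 had a positive and 2 a negative log2 difference, from -0.50 to 0.58. The largest were Acaa2, the mitochondrial thiolase (0.58 ± 0.21, adjusted p = 0.0823), Eci1 (-0.50 ± 0.21, adjusted p = 0.132), Hadha (0.44 ± 0.23, adjusted p = 0.221) and Hadhb (0.37 ± 0.16, adjusted p = 0.160). Hadha and Hadhb encode the 2 subunits of the trifunctional protein, and their RefSeq starts lie 273 bases apart on opposite strands. Acadl was at 124 and 173 CPM in wild-type basal, 183, 210 and 231 CPM in wild-type IL-4, 172 and 347 CPM in knockout basal and 216, 114 and 230 CPM in knockout IL-4 libraries. Its groups overlapped within knockout and its averaged log2 difference was 0.01 ± 0.23 (adjusted p = 0.992). Etfa was at 55.5 and 64.1 CPM in wild-type basal and 73.3, 71.4 and 73.6 CPM after IL-4, and at 48.0 and 47.3 CPM and then 58.4, 72.9 and 51.4 CPM in knockout. The averaged log2 difference of Etfa was 0.32 ± 0.16 (adjusted p = 0.224). Acot2, a mitochondrial acyl-CoA thioesterase, was at 22.4 and 11.3 CPM in wild-type basal, 25.7, 18.7 and 32.3 CPM in wild-type IL-4, 13.7 and 22.5 CPM in knockout basal and 31.0, 11.4 and 12.3 CPM in knockout IL-4 libraries. Its groups overlapped (averaged log2 0.30 ± 0.31, adjusted p = 0.583).

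Eci2 (ENSMUSG00000021417, chr13:34977748-35027096, minus strand) had the largest fold change of the members for IL-4 averaged over genotypes. It encodes an enoyl-CoA isomerase that moves the double bond of unsaturated fatty acids so that oxidation can go on. Eci2 was at 24.8 and 25.5 CPM in wild-type basal, 75.6, 79.8 and 49.0 CPM in wild-type IL-4, 30 and 21.5 CPM in knockout basal and 114, 43.7 and 53.8 CPM in knockout IL-4 libraries. All 6 IL-4 libraries lay above all 4 basal ones, and knockout IL-4 replicate 1 was the highest. The averaged rise was 2.72-fold (log2 1.45 ± 0.27, adjusted p = 0.00295). Its near copy Eci3 had 1 count over all libraries, where Eci2 had 6013. Ech1 was the other gene grouped under both organelles. In wild type it was at 29.7 and 23.4 CPM in basal and 39.0, 26.5 and 29.3 CPM in IL-4 libraries. In knockout it was at 18.7 and 23.5 CPM in basal and 39.3, 27.7 and 24.5 CPM in IL-4 libraries. These groups overlapped and Ech1 did not pass (averaged log2 0.39 ± 0.20, adjusted p = 0.231).

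Among the peroxisomal genes, the transporters of the ABC D family moved in opposite directions. Abcd2 (ENSMUSG00000055782, chr15:91145871-91191799, minus strand) was at 64.8 and 105 CPM in wild-type basal, 191, 312 and 277 CPM in wild-type IL-4, 124 and 121 CPM in knockout basal and 361, 193 and 276 CPM in knockout IL-4 libraries. The IL-4 and basal libraries did not overlap. Abcd2 rose 2.63-fold on average (log2 1.40 ± 0.21, adjusted p = 0.000694), from 104 ± 27.3 (SD, n = 4) to 268 ± 66.7 CPM (SD, n = 6). Abcd3 (ENSMUSG00000028127, chr3:121758774-121815302, minus strand), whose product carries long and branched acyl-CoA and is a common marker of the peroxisomal membrane, was at 73.8 and 54.8 CPM in wild-type basal, 30, 43.3 and 29.1 CPM in wild-type IL-4, 62.3 and 57.5 CPM in knockout basal and 34.4, 39.6 and 45.4 CPM in knockout IL-4 libraries. All IL-4 libraries lay below all basal ones. Abcd3 fell 1.68-fold (log2 -0.75 ± 0.18, adjusted p = 0.0129), and that call was lost without knockout basal replicate 1 (0.052) or wild-type basal replicate 1 (0.0592). The biogenesis genes did not pass: Pex11a, which acts in peroxisome division, had a log2 difference of 0.54 ± 0.20 (adjusted p = 0.0803), and Pex5, the import receptor for matrix enzymes, one of 0.03 ± 0.17 (adjusted p = 0.939).

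Of the 5 tested peroxisomal enzymes, Phyh and Acox3 rose. Phyh encodes phytanoyl-CoA hydroxylase, which starts the alpha-oxidation of phytanic acid. It was at 26.4 and 19.1 CPM in wild-type basal, 42.3, 32.6 and 39.4 CPM in wild-type IL-4, 22.4 and 20.4 CPM in knockout basal and 27.0, 30.3 and 43.4 CPM in knockout IL-4 libraries, with no overlap between IL-4 and basal. The averaged rise was 1.62-fold (log2 0.70 ± 0.20, adjusted p = 0.0299). It was lost without any 1 of 6 libraries, with adjusted p from 0.0591 to 0.120: knockout basal replicates 1 and 2, knockout IL-4 replicate 3, wild-type basal replicate 2 and wild-type IL-4 replicates 1 and 3. Acox3, the peroxisomal oxidase of branched chains, was at 8.69 and 11.0 CPM in wild-type basal, 19.1, 20.7 and 27.0 CPM in wild-type IL-4, 20.9 and 25.4 CPM in knockout basal and 24.8, 25.0 and 24.8 CPM in knockout IL-4 libraries. Its 2 wild-type basal libraries stood below the other 8, which overlapped. The averaged rise was 1.55-fold (log2 0.64 ± 0.19, adjusted p = 0.0367) and was lost without any 1 of 8 libraries (adjusted p from 0.0519 to 0.142), the exceptions being wild-type IL-4 replicate 1 and knockout IL-4 replicate 2. Hsd17b4, the peroxisomal multifunctional enzyme, Acaa1a and Crot, the carnitine octanoyltransferase, had averaged log2 differences of 0.24 ± 0.18, -0.24 ± 0.23 and -0.21 ± 0.27 and did not pass.

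The acyl-CoA synthetases Acsl1 and Acsl4 rose. Acsl1 was at 58.4 and 37.0 CPM in wild-type basal, 98.7, 83.3 and 71.4 CPM in wild-type IL-4, 41.9 and 51.1 CPM in knockout basal and 76.3, 64.7 and 91.2 CPM in knockout IL-4 libraries. Acsl4, which prefers arachidonic acid and other polyunsaturated chains, was at 26.3 and 32.5 CPM, 46.1, 34.6 and 39.7 CPM, 26.5 and 24.1 CPM and 47.3, 35.8 and 50.3 CPM in the same order. Neither gene's IL-4 and basal libraries overlapped. Acsl1 rose 1.72-fold (log2 0.78 ± 0.19, adjusted p = 0.0141), lost without knockout basal replicate 1 (0.0709) or wild-type basal replicate 2 (0.0697). Acsl4 rose 1.55-fold (log2 0.63 ± 0.18, adjusted p = 0.0314), lost without any 1 of 6 libraries (adjusted p from 0.0564 to 0.118): knockout basal replicates 1 and 2, knockout IL-4 replicate 3, wild-type basal replicate 1 and wild-type IL-4 replicates 1 and 3. Acsl5 was at 69.2 and 64.7 CPM in wild-type basal, 63.5, 57.6 and 63.8 CPM in wild-type IL-4, 77.8 and 58.1 CPM in knockout basal and 38.3, 57.0 and 49.4 CPM in knockout IL-4 libraries. Its averaged log2 difference was -0.31 ± 0.17 (adjusted p = 0.265), and Acsl3, at 1.79 to 8.75 CPM, had 0.42 ± 0.37 (adjusted p = 0.500). Ppard, the delta form of the PPARs, was at 5.85 and 6.34 CPM in wild-type basal, 3.55, 6.18 and 5.76 CPM in wild-type IL-4, 5.84 and 4.83 CPM in knockout basal and 3.55, 4.22 and 4.09 CPM in knockout IL-4 libraries. The groups overlapped and the averaged log2 difference of Ppard was -0.33 ± 0.28 (adjusted p = 0.482).

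Over the 35 tested members, the IL-4 and basal libraries did not overlap for 7 with higher and 1 with lower levels after IL-4, where 8.77% of all genes tested did not overlap. These 8 were the called genes other than Acox3. Cpt1a, Eci2 and Abcd2 kept their averaged call in each of the 10 fits that left out 1 library.

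**Figure D2:**
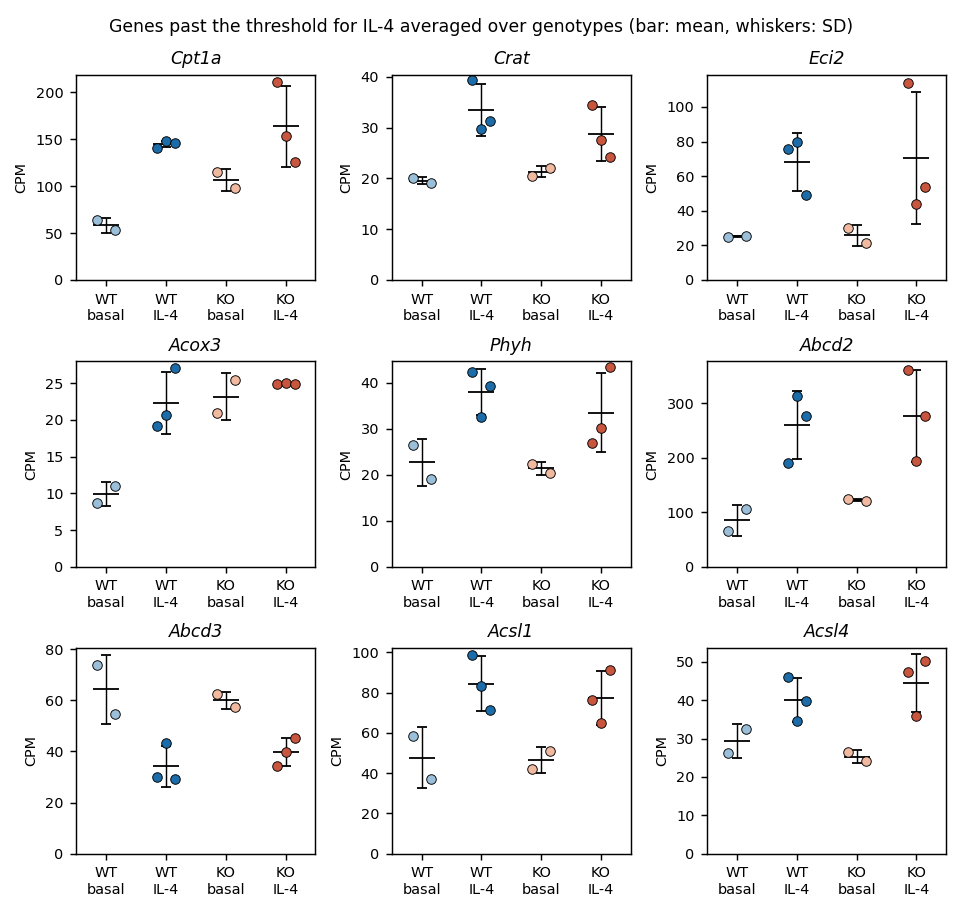
CPM by library for the 9 genes that passed for IL-4 averaged over genotypes, in 4 groups, with points for libraries, a bar for the mean and whiskers for the SD. Abcd2 goes from 64.8 to 124 CPM in basal libraries to 191 to 361 CPM after IL-4, and Acox3 is low in the 2 wild-type basal libraries alone.

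Sequence upstream of the start was available from RefSeq (GRCm38.p6) for 31 of the 36 members. The 250 bases before each start were searched on both strands for the PPAR response element (AGGTCA repeated after 1 base of any kind), for the single AGGTCA, which lies within that element, and for the STAT6 motif (TTC and GAA with any 4 bases between them). STAT6 is the factor that IL-4 activates. The last motif was added after expression values had been seen. Of the 35 member windows, 0 held the full element, which 0.0335% of all 32851 windows held. A single AGGTCA was found for 4 members, Acadm, Acadvl, Cpt1a and Echs1, where 14% of all windows held one. The STAT6 motif was found for 1 member, Abcd3, where 5.85% of all windows held it. Below are the windows of the 4 members that passed in wild type and had a RefSeq window (Cpt1a, Acox3, Eci2 and Abcd3). They are printed because 3 rose and 1 fell. The bases run 5′ to 3′ on the gene's strand up to the first annotated exon base, with motif matches in capitals. The AGGTCA of Cpt1a starts 94 bases before its RefSeq start and reads on the other strand, and the match of Abcd3 starts 188 bases before its start.
Cpt1a, chr19:3323051-3323284, plus strand: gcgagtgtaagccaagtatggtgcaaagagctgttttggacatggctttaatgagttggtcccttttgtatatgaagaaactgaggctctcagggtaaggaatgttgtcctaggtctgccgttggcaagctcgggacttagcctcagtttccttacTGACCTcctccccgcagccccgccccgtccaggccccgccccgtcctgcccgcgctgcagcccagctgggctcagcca
Acox3, chr5:35582784-35583033, plus strand: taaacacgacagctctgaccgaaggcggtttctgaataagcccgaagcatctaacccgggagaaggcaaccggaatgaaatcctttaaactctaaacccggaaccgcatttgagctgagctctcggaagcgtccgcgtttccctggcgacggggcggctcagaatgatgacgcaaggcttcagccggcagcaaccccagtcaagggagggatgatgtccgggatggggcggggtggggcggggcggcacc
Eci2, chr13:34994282-34994394, minus strand: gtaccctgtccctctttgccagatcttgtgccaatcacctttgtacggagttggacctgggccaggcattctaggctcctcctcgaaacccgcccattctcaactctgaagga
Abcd3, chr3:121815303-121815552, minus strand: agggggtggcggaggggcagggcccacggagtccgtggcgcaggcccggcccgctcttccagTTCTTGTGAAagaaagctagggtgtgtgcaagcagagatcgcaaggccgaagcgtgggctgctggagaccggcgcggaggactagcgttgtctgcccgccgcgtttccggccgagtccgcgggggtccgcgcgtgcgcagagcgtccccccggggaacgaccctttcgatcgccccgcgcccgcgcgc
The member windows had a median of 59.6% G and C and 14 CpG, where all windows had 52.4% and 6. The printed Acox3 and Abcd3 windows lie outside the GENCODE gene spans. Another Abcd3 window, which lies inside the gene span, is not printed. The Cpt1a and Eci2 windows lie inside the spans and run into the genes' own exons, so 234 and 113 of their 250 bases are printed. A match to these letters is a description of the window and not a bound site.

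Within wild type, IL-4 raised 4 members and lowered 1 of the 35 tested. This was 14.3% of the members, where 6.06% of all genes passed, 3.26% higher and 2.80% lower. Abcd2 rose 3.06-fold (84.8 ± 28.4 to 260 ± 62.1 CPM, SD, n = 2 and 3, log2 1.62 ± 0.31, adjusted p = 0.00636) and Cpt1a 2.50-fold (58.2 ± 7.77 to 145 ± 3.60 CPM, log2 1.32 ± 0.25, adjusted p = 0.00651). Eci2 rose 2.71-fold (25.2 ± 0.485 to 68.2 ± 16.7 CPM, log2 1.44 ± 0.38, adjusted p = 0.0365), Acox3 rose 2.25-fold (9.87 ± 1.67 to 22.3 ± 4.15 CPM, log2 1.17 ± 0.27, adjusted p = 0.0191), and Abcd3 fell 1.88-fold (64.3 ± 13.4 to 34.1 ± 7.92 CPM, log2 -0.91 ± 0.25, adjusted p = 0.0457). Acsl1 (log2 0.83 ± 0.27, adjusted p = 0.0820), Crat (0.78 ± 0.26, adjusted p = 0.0888) and Phyh (0.74 ± 0.28, adjusted p = 0.131) did not pass here with edgeR. With DESeq2, 7 members passed within wild type, as did 1144 of all genes. Among the 7 were 2 genes of the carnitine shuttle and 1 acyl-CoA synthetase. Each call rested on 2 basal libraries. Abcd2 was lost without wild-type basal replicate 1 (0.0622) and Cpt1a without wild-type basal replicate 2 (0.0720). Acox3 was lost without wild-type basal replicate 1 (0.135) or 2 (0.0643) or wild-type IL-4 replicate 3 (0.0784), as adjusted p. Eci2 was lost without wild-type basal replicate 1 (0.163) or 2 (0.177) or wild-type IL-4 replicate 1 (0.102) or 2 (0.113). Abcd3 was lost without any 1 of 6 libraries (0.0624 to 0.276), the exceptions being the 3 knockout IL-4 libraries and wild-type IL-4 replicate 2, and also with scaling by library totals (0.0656).

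Within knockout, 2 members rose and none fell, 5.71% of the 35, where 7.60% of all genes passed, 4.09% higher and 3.51% lower. These were Eci2 (2.74-fold, 25.7 ± 6.00 to 70.5 ± 38.0 CPM, SD, n = 2 and 3, log2 1.46 ± 0.38, adjusted p = 0.0308) and Abcd2 (2.26-fold, 123 ± 1.73 to 277 ± 84.0 CPM, log2 1.17 ± 0.30, adjusted p = 0.0263). Eci2 was lost without knockout basal replicate 1 (0.102) or 2 (0.245) or knockout IL-4 replicate 1 (0.076), as adjusted p. Abcd2 was lost without knockout basal replicate 1 (0.147) or 2 (0.172) or knockout IL-4 replicate 1 (0.0697) or 3 (0.0521). Acsl4 (log2 0.81 ± 0.26, adjusted p = 0.0663), Acadm (0.88 ± 0.28, adjusted p = 0.0711) and Cpt1a (0.62 ± 0.24, adjusted p = 0.142) did not pass with edgeR. With DESeq2, 4 members passed within knockout, as did 1306 of all genes. Among the 4 were 1 mitochondrial beta-oxidation enzyme and 1 acyl-CoA synthetase. Acox3 was at 23.1 ± 3.20 CPM before and 24.8 ± 0.110 CPM after IL-4 in knockout, a log2 difference of 0.10 ± 0.26 (adjusted p = 0.867).

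**Figure D3:**
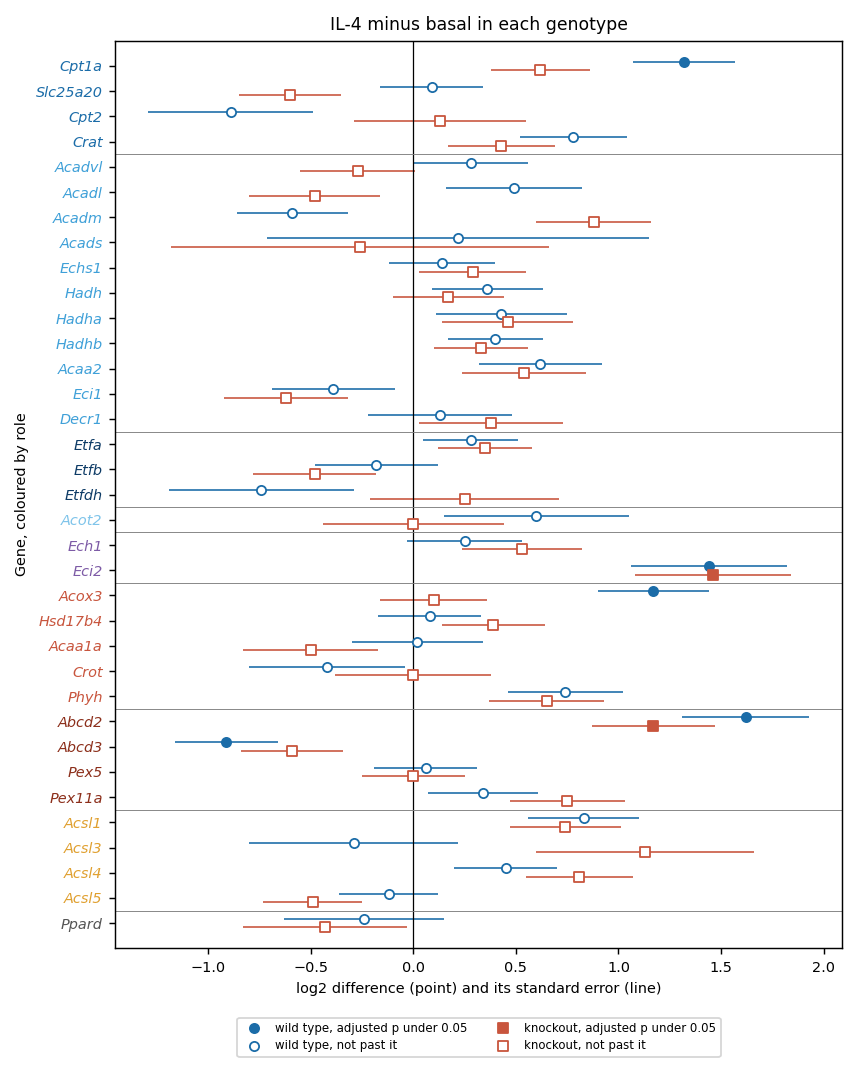
Log2 difference between IL-4 and basal libraries for the 35 tested genes in wild type (circles) and knockout (squares), with standard errors as lines and filled symbols for an adjusted p under 0.05. Eci2 and Abcd2 are filled in both genotypes, and Acadm has -0.59 in wild type and 0.88 in knockout.

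Whether the IL-4 difference itself depended on genotype was asked with the interaction, the difference in knockout minus that in wild type. None of the 35 members passed with edgeR, where 2.81% of all genes passed, and 2 members had an unadjusted p under 0.05, as 15.3% of all genes did. With DESeq2, 1 member passed. The 2 were Acadm and Acox3. Acadm (ENSMUSG00000062908, chr3:153922357-153944632, minus strand) was at 127 and 179 CPM in wild-type basal, 109, 95.3 and 102 CPM in wild-type IL-4, 94.1 and 53.0 CPM in knockout basal and 104, 158 and 143 CPM in knockout IL-4 libraries. Its IL-4 libraries lay below the basal ones in wild type and above them in knockout. The interaction was 1.47 ± 0.39 (adjusted p = 0.0565), and over the alternatives run its adjusted p ranged from 0.00367 to 0.257, with DESeq2 giving 0.0118. That highest value came without knockout basal replicate 2, and 3 of the 10 fits without 1 library passed. Acox3 had an interaction of -1.07 ± 0.37 (adjusted p = 0.162) and Cpt1a one of -0.70 ± 0.34 (adjusted p = 0.345). A call in wild type alone, as for Cpt1a, Acox3 and Abcd3, was thus not shown to differ from knockout.

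Under basal conditions, 1 of 35 members differed between genotypes with edgeR, 2.86%, where 4.14% of all genes passed and 2.61% were higher in knockout. With DESeq2, 3 members passed, as did 841 of all genes. They were 1 each of the carnitine shuttle, the mitochondrial beta-oxidation enzymes and the peroxisomal enzymes. Acox3 (ENSMUSG00000029098, chr5:35583040-35615352, plus strand) was at 20.9 and 25.4 CPM in knockout libraries, with wild type at 8.69 and 11.0 CPM, without overlap, and was 2.34-fold higher in knockout (log2 1.23 ± 0.29, adjusted p = 0.0268). With only 2 libraries a group, the call was lost without either knockout basal library (adjusted p = 0.069 and 0.176) or either wild-type basal library (0.137 and 0.0727). Acadm was lower in knockout without passing (73.5 ± 29.1 against 153 ± 36.4 CPM, SD, n = 2 each, log2 -1.06 ± 0.30, adjusted p = 0.0646) and Cpt1a was higher without passing (107 ± 12.1 against 58.2 ± 7.77 CPM, log2 0.87 ± 0.27, adjusted p = 0.0812). Echs1, the mitochondrial enoyl-CoA hydratase, had a log2 difference of -0.82 ± 0.29 (adjusted p = 0.131). Beside these values, the B cell sum was 1788 to 2055 CPM in knockout and 264 to 441 CPM in wild type, with 11 of 11 tested B cell genes higher, and the small macrophage, monocyte and dendritic cell sum was 1656 to 2164 against 443 to 862 CPM, with 7 of 12 genes higher. The part of these cells in the Acox3 difference was not tested.

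After IL-4, none of the 35 members differed between knockout and wild type with edgeR or DESeq2, where 0.827% of all genes passed with edgeR. An unadjusted p under 0.05 was found for 3 members, Echs1, Etfb and Eci1, and for 14.4% of all genes. The log2 differences ran from -0.66 to 0.93, with a median of -0.08. Echs1 was at 36.9, 30.5 and 43.0 CPM in knockout libraries, with wild type at 55.7, 69.5 and 49.3 CPM, without overlap (log2 -0.66 ± 0.23, adjusted p = 0.205). Etfb, the beta subunit of electron-transferring flavoprotein, was at 11.5, 14.3 and 9.45 CPM against 23.0, 12.4 and 18.2 CPM (log2 -0.60 ± 0.27, adjusted p = 0.327), with overlap. The 3 members with the lowest averaged p for IL-4 had overlapping libraries in the 2 genotypes after IL-4: Abcd2 was at 277 ± 84.0 CPM with the knockout and 260 ± 62.1 CPM without it (SD, n = 3 each, log2 0.09 ± 0.26), Eci2 at 70.5 ± 38.0 and 68.2 ± 16.7 CPM (log2 0.05 ± 0.32) and Cpt1a at 164 ± 43.5 and 145 ± 3.60 CPM (log2 0.17 ± 0.21). Not passing the test does not show that the genotypes are alike.

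**Figure D4:**
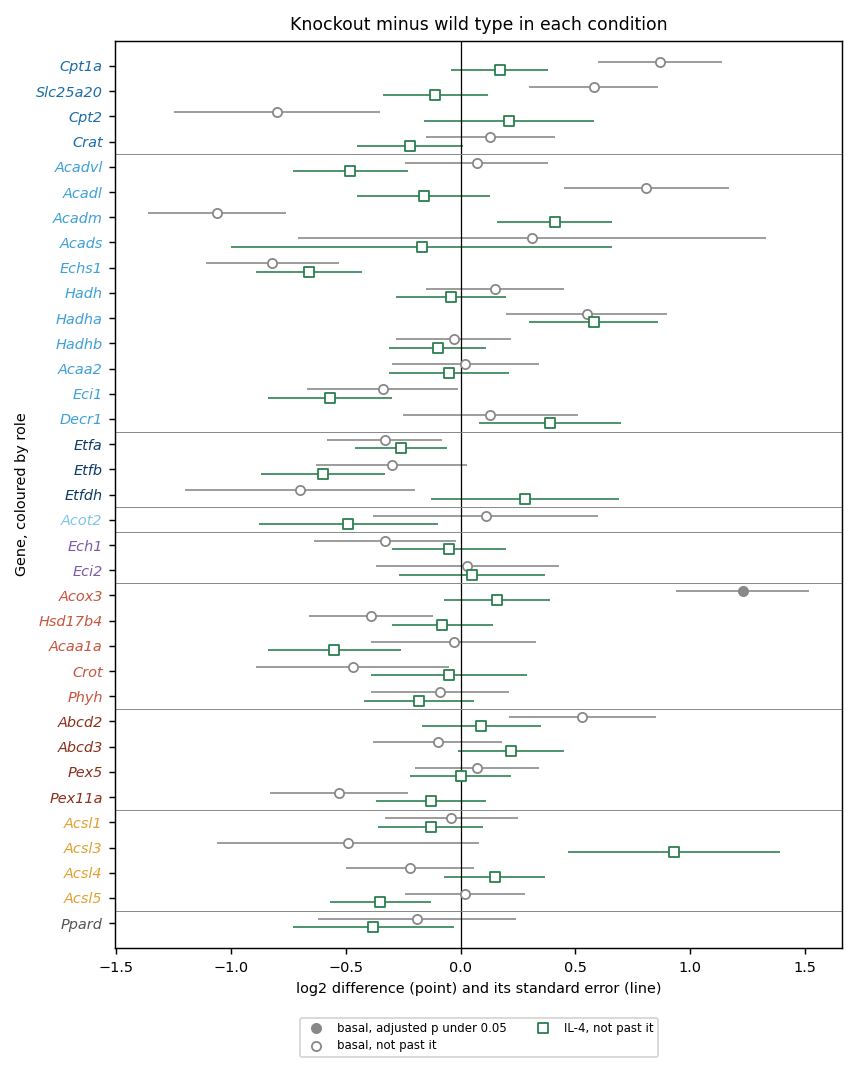
Log2 difference between knockout and wild type for the 35 tested genes under basal conditions (circles) and after IL-4 (squares), with standard errors as lines and filled symbols for an adjusted p under 0.05. Acox3 under basal conditions, at 1.23, is the filled symbol.

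Other genes of the pathway were taken from lists by role. The peroxin list held genes of peroxins, the proteins that build peroxisomes, and also Fis1 and Mff, which are not peroxins. Of its 16 tested genes, 0 passed in any of the 6 comparisons with edgeR or DESeq2. By comparison, 0.827% to 12.9% of all genes passed with edgeR. For IL-4 averaged over genotypes, 1 (Pex26, log2 -0.55 ± 0.20, adjusted p = 0.0891) had an unadjusted p under 0.05, as did 1 for IL-4 in knockout. Such a p was found for 27.1% and 22.7% of all genes in that order. Of 25 other tested peroxisomal enzymes and carriers, 1 rose (4.0%) and 0 fell with IL-4 on average, where 7.03% of all genes rose and 5.82% fell. That gene, Agps, which acts in ether lipid synthesis, was at 62.2 and 55.4 CPM in wild-type basal, 72.2, 95.4 and 101 CPM in wild-type IL-4, 65.8 and 52.5 CPM in knockout basal and 92.0, 98.8 and 88.2 CPM in knockout IL-4 libraries. Agps rose 1.55-fold (log2 0.63 ± 0.17, adjusted p = 0.0217), without overlap, and the call was lost without knockout basal replicate 2 (0.109), wild-type basal replicate 2 (0.0784) or wild-type IL-4 replicates 2 (0.0518) or 3 (0.0598).

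Of 27 tested genes in the list of other mitochondrial fatty acid and acyl-CoA enzymes, 0 rose and 1 fell with IL-4 on average. That is 3.7%, where 12.9% of all genes passed in either direction. The gene that fell was Ivd of leucine breakdown (log2 -0.68 ± 0.21, adjusted p = 0.0416). Its call was lost without any 1 of 9 libraries (adjusted p from 0.0511 to 0.166), knockout IL-4 replicate 2 being the exception. Acss1, the mitochondrial acetyl-CoA synthetase, differed by genotype. It was at 6.80 and 6.68 CPM in wild-type basal, 15.5, 12.2 and 15.4 CPM in wild-type IL-4, 27.3 and 32.1 CPM in knockout basal and 18.9, 12.8 and 14.6 CPM in knockout IL-4 libraries. Basal knockout was 4.40-fold above basal wild type (log2 2.14 ± 0.31, adjusted p = 0.000867), and after IL-4 the genotypes overlapped. A place in this list does not mean that a product is mitochondrial, and Nudt19 encodes a peroxisomal CoA diphosphatase. After IL-4, Nudt19 was lower in knockout (9.97 ± 1.69 against 23.3 ± 3.76 CPM, SD, n = 3 each, log2 -1.22 ± 0.27, adjusted p = 0.0420). Its call was lost without any 1 of the 6 IL-4 libraries (adjusted p from 0.0599 to 0.191).

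Of 16 tested genes of fatty acid uptake, binding and lipid droplet breakdown, 1 rose and 1 fell with IL-4 on average. That is 12.5%, where 12.9% of all genes passed in either direction. Lipa, the lysosomal acid lipase, was at 210 and 275 CPM in wild-type basal, 509, 471 and 548 CPM in wild-type IL-4, 336 and 243 CPM in knockout basal and 661, 495 and 445 CPM in knockout IL-4 libraries, a rise of 1.97-fold without overlap (log2 0.98 ± 0.17, adjusted p = 0.00140). Mgll, monoacylglycerol lipase, fell but was at or under 3.58 CPM throughout, and its averaged call was lost without knockout basal replicate 2 (0.166), wild-type basal replicate 2 (0.0821) or wild-type IL-4 replicate 2 (0.0522). In wild type, Plin2, which coats lipid droplets, rose 2.08-fold (140 ± 22.4 to 291 ± 35.9 CPM, SD, n = 2 and 3, log2 1.06 ± 0.23, adjusted p = 0.0136), lost without wild-type basal replicate 1 (0.112) or wild-type IL-4 replicate 1 (0.0528). Fabp5, a fatty acid binding protein, was at 1640 and 1280 CPM in wild-type basal, 279, 464 and 385 CPM in wild-type IL-4, 197 and 245 CPM in knockout basal and 247, 1070 and 427 CPM in knockout IL-4 libraries. Both wild-type basal libraries lay above the other 8, of which knockout IL-4 replicate 2 was the highest. Fabp5 fell in wild type (log2 -1.96 ± 0.46, adjusted p = 0.0260) and was lower in basal knockout than in basal wild type (log2 -2.73 ± 0.54, adjusted p = 0.0148). The first call was lost without any 1 of 6 libraries (adjusted p from 0.0518 to 0.184) and the second without any 1 of the 4 basal libraries (0.0827 to 0.169).

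Of 14 tested regulators, 4 rose and 0 fell with IL-4 on average, which is 28.6% where 7.03% of all genes rose and 5.82% fell. This list too was chosen with earlier results of these data known. Klf4, a transcription factor gene known to be induced by IL-4, rose 2.95-fold (log2 1.56 ± 0.16, adjusted p = 2.34e-05), from 299 ± 50.1 (SD, n = 4) to 891 ± 253 CPM (SD, n = 6). Ppargc1b, a coactivator of oxidative genes, rose 1.73-fold (log2 0.79 ± 0.18, adjusted p = 0.0108), lost without knockout basal replicate 1 (0.0685). Stat6 rose 1.59-fold (log2 0.67 ± 0.17, adjusted p = 0.0161), lost without knockout basal replicate 2 (0.0844) or wild-type basal replicate 2 (0.0534). Pparg rose from at most 0.283 CPM in basal libraries to 0.508 to 4.01 CPM after IL-4 (adjusted p = 0.0299), and lost its call without either knockout basal library (0.107 and 0.0546), wild-type basal replicate 2 (0.0978) or wild-type IL-4 replicate 3 (0.0785). For all 4 genes the IL-4 and basal libraries did not overlap. Tfam, which maintains mitochondrial DNA, was lower in basal knockout (39.1 ± 3.85 CPM) than in basal wild type (112 ± 16.9 CPM, SD, n = 2 each, log2 -1.52 ± 0.38, adjusted p = 0.0373). That call was lost without any 1 of the 4 basal libraries (adjusted p from 0.0748 to 0.217).

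Of 13 tested known PPAR targets, 7 of which are among the 36 members, 3 rose with IL-4 on average (7.03% of all genes rose) and 4 in wild type (3.26% of all genes rose). For the same list 0 passed within knockout with edgeR or DESeq2, where 7.60% of all genes passed with edgeR. An unadjusted p under 0.05 was found there for 3 of the 13 and for 22.7% of all genes. The 4 in wild type were Cpt1a, Plin2, Ucp2 and Angptl4. In edgeR's interaction test 1 of the 13 passed (7.69%, where 2.81% of all genes passed). That gene was Angptl4, whose value rests on 1 count in the wild-type basal group. The calls of Cpt1a, Plin2 and Ucp2 in wild type were thus not shown by edgeR to differ from knockout. With DESeq2, 2 of the 13 passed for the interaction, as did 594 of all genes. This list too was chosen with earlier results of these data known. Ucp2, an inner-membrane carrier, rose 1.82-fold there (297 ± 32.7 to 540 ± 65.5 CPM, SD, n = 2 and 3, log2 0.86 ± 0.21, adjusted p = 0.0246), lost without wild-type basal replicate 1 (0.066) or 2 (0.178) or wild-type IL-4 replicate 1 (0.0823) or 2 (0.0717), as adjusted p. Angptl4, an inhibitor of lipoprotein lipase, was at 0.00 and 0.0856 CPM in wild-type basal, 8.97, 6.45 and 7.52 CPM in wild-type IL-4, 3.57 and 2.59 CPM in knockout basal and 1.22, 0.384 and 1.68 CPM in knockout IL-4 libraries. With 276 counts after IL-4 and 1 count before, the ratio in wild type was 168 with an exact 95% counting interval of 29.9 to 6660, which covers counting error only (adjusted p = 0.000654).

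**Figure D5:**
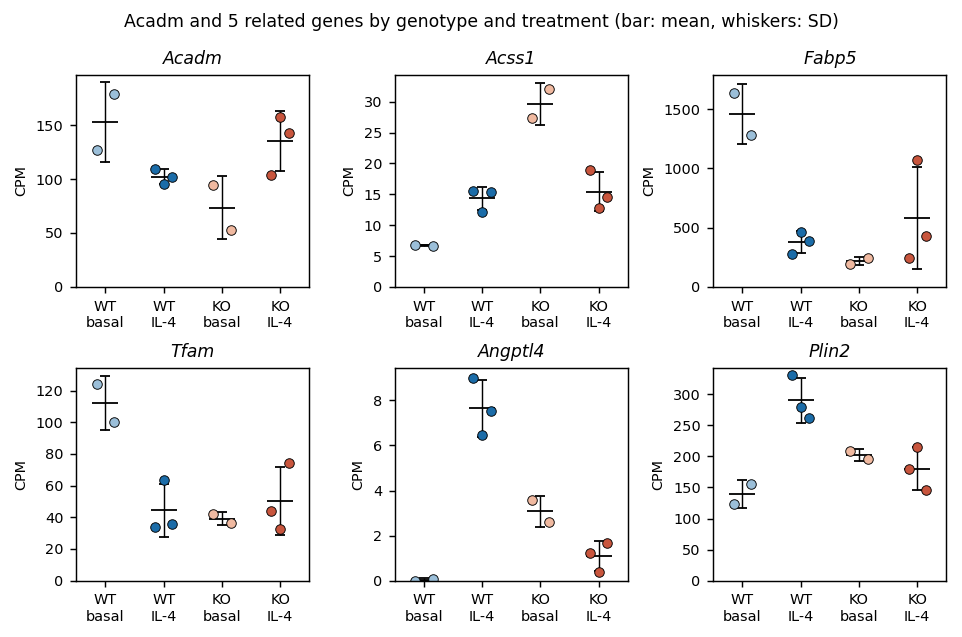
CPM by library for Acadm and for Acss1, Fabp5, Tfam, Angptl4 and Plin2, in 4 groups, with points for libraries, a bar for the mean and whiskers for the SD. Fabp5 and Tfam are highest in wild-type basal libraries, Acss1 in knockout basal libraries and Angptl4 in wild-type IL-4 libraries.

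The counting setting for strand was not given in the sources used here, so reads from overlapping genes on opposite strands cannot be told apart. Exons of Crat overlap those of the coding gene Dolpp1 by 59 bases and of the antisense gene Gm16323 by 411 bases. Exons of Acox3 and Eci2 overlap antisense genes by 700 and 189 bases, and those of Acsl1 overlap an unclassified gene on the other strand by 1039 bases. Among members that did not pass, the longest overlap with a coding gene was that of Acadvl with Dvl2 (1151 bases).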

How the data were processed

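Polyadenylated RNA of 10 libraries was analysed from the deposited count table, which holds 22165 Ensembl identifiers by library. The authors' values are raw counts per gene, and per the submitters' processing notes STAR, HTSeq and mm10 were used. Versions and the strand setting were not given in the sources used here. Symbols, exon lengths and positions came from GENCODE M21, which named 21745 identifiers.

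Counts were tested with edgeR 4.0.16 (R 4.3.3, limma 3.58.1): TMM scaling, filterByExpr (minimum count 10, minimum total 15), means of the 4 groups, and robust quasi-likelihood tests with 6 residual degrees of freedom. The p-values were adjusted over 11614 genes. The script was also tested on simulated data. The alternatives were median-of-ratios size factors, library totals, no filter, DESeq2 1.42.0, a replicate block and leaving out each library. Summaries used Python 3.11.15 and pandas 2.3.3, and counting intervals used SciPy 1.17.1. No library pair of a group agreed within counting noise.

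The members and lists were chosen with earlier results of these data known. Values by library are given for members that passed in any comparison, for the lowest adjusted p in each role and for the highest level per kilobase in each role. Of each other list, up to 4 genes that passed, with the smallest p, are named, but not every comparison in which they passed is described. Calls left out include Tfam for IL-4 in wild type, Stat6 and Lipa for IL-4 in knockout and Angptl4 for genotype after IL-4. Results for the targeted gene and for 1 listed regulator are not reported here.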

Additional observations from a re-analysis of the deposited data

Results flagged for a closer look

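For 3 genes of the related lists, and for none of the 36 members, the IL-4 difference in knockout differed from that in wild type by edgeR's interaction test. In that test 2.81% of all genes passed. These results are given as values only. Acss1, the mitochondrial acetyl-CoA synthetase, had an interaction of -2.04 ± 0.39 on the log2 scale (adjusted p = 0.00947), which passed in each of the 10 fits without 1 library. Its log2 difference was 1.09 ± 0.29 in wild type and -0.95 ± 0.27 in knockout. The wild-type call was lost in several of these 10 fits, with adjusted p up to 0.173 without wild-type basal replicate 2. The knockout call was also lost in several, with adjusted p up to 0.272 without knockout basal replicate 2. Angptl4 had an interaction of -8.59 ± 1.15 (adjusted p = 0.000958), which rests on 1 count in the wild-type basal group and so depends on the prior count, and it also passed in each of those fits. Fabp5 had an interaction of 3.35 ± 0.67 (adjusted p = 0.0187), lost without knockout basal replicate 1 (0.141) or 2 (0.109), wild-type basal replicate 1 (0.101) or 2 (0.0846) or wild-type IL-4 replicate 3 (0.054). In the same test 10 of 11 B cell genes and 5 of 12 small macrophage, monocyte and dendritic cell genes had a negative interaction that passed. So did 2 of 8 mast cell, 2 of 7 neutrophil, 2 of 16 large macrophage, 1 of 8 T and NK cell and 1 of 2 eosinophil genes. The part of those cells in the 3 results was not tested.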

How the results depend on the processing

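Of 17 member differences that passed, 0 changed direction under any alternative. Median-of-ratios size factors and DESeq2 kept all 17, no filter kept 16, library totals kept 15, and 3 passed in each of the 10 fits that left out a library. Members called went from 2 to 4 with DESeq2 for IL-4 in knockout, and from 1 to 2, 2 and 3 with library totals, no filter and DESeq2 for basal genotype. For the interaction they went from 0 to 1 with no filter and with DESeq2. Genes called with no filter were 1209 (704 in the reported fit) for IL-4 in wild type, 1423 (883) in knockout, 1034 (481) for basal genotype, 505 (96) for genotype after IL-4 and 819 (326) for the interaction. DESeq2 gave 1144, 841, 385 and 594 for IL-4 in wild type, basal genotype, genotype after IL-4 and the interaction. The cause was not tested.

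Replicate numbers did not pair the libraries: deviations of same-numbered libraries correlated at -0.11 to 0.062 and of others at -0.138 to 0.162. With the replicate block, genes called were 554 for IL-4 in knockout and 836 (1493 without it) for IL-4 averaged. Members called with the replicate block were 3, 1 and 4 for IL-4 in wild type, knockout and their average (5, 2 and 9 without it), and 9 of the 17 calls were kept.

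Without 1 library, members called ranged from 4 to 11 for IL-4 averaged, 1 to 5 in wild type, 0 to 4 in knockout, 0 to 3 for basal genotype, 0 to 1 for the interaction and 0 to 0 for genotype after IL-4. Genes called ranged from 841 to 1560, 302 to 764, 327 to 931, 208 to 550, 182 to 397 and 21 to 129 in that order.

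Library totals moved the median log2 difference of all genes to 0.13 for basal genotype, -0.17 for the interaction and -0.1 for IL-4 in knockout. The share of calls that were higher went from 53.8% to 65.3% for IL-4 in wild type, 53.8% to 42.0% in knockout, 63.0% to 79.3% for basal genotype and 36.5% to 25.1% for the interaction. With no filter it was 43.9% for basal genotype, 57.4% (42.7% in the reported fit) for genotype after IL-4 and 59.5% for the interaction. With 2 basal libraries a genotype, depth limits most the genes of few counts such as Acads, with 175 counts in all.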
